A study of Arabidopsis thaliana with 9 samples.

Results

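Alpha-expansins are secreted proteins that loosen the plant cell wall. The 10 genes described here, EXPA1 to EXPA8, EXPA10 and EXPA11 of Arabidopsis thaliana, were picked by locus code, and all 10 were among the 17680 genes of the expression table. Sequencing of mRNA 3′ ends gave their transcript levels in whole wild-type seedlings of the Columbia-0 accession, in 3 groups of 3 libraries each. WLc seedlings were kept for 2 days under continuous white light (100 µE per square metre per second). R1h seedlings spent 47 h in “true dark”, in which a far-red pulse at the outset inactivates phytochrome, and were then given red light for 1 h (10 µE per square metre per second). D seedlings spent 2 days in “true dark” and were collected without a light treatment. Before growth, seeds of D and R1h were kept moist in the cold for 4 days (stratification at 4 °C), and those of WLc were stratified too. The far-red pulse and the white light that starts germination are described for D and R1h and are not named for WLc. The seedlings were intact and pooled, so a lower level can mean fewer cells of a type or less RNA per cell, which cannot be told apart.

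Expansins do not cut wall polymers. They act at acidic pH, where they ease the contacts between cellulose and the glycans that coat it, so that a wall under turgor can stretch. Plasma membrane proton pumps supply the acidic pH. In darkness the Arabidopsis hypocotyl elongates fast while the cotyledons stay small and folded, and light slows the hypocotyl and lets the cotyledons open and grow. Both programmes involve wall loosening, in different organs. The comparison of R1h with D addresses the response to a first, short light exposure, and that of WLc with D addresses growth under an extended light regime.

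Each level is given in pseudo-counts, as averaged by the authors over the 3 libraries of a group. Pseudo-counts are read counts adjusted to a common library size. The table gives no value per library, so the spread between libraries is unknown, and no SD, p-value or replicate check could be had from it. The interval beside a ratio is an exact binomial 95% interval for counting error only. It rests on the value of 1 read, 0.327 pseudo-counts in WLc, 0.330 in R1h and 0.331 in D, so that the lowest level among the 10 genes, 36.9, stood for about 111 reads. The terms called higher and called lower are used where log2(value + 1) differed by at least 1, that is, 2-fold. A log2 fold change is this difference, while the interval beside it is for the log2 of the ratio without the added 1. The 2 measures part most in genes of low level. Whole columns added up to 12.5 M pseudo-counts for WLc, 11.99 M for R1h and 11.4 M for D.

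The 10 genes did not move as one group, and the 2 most abundant ones in the dark made up most of the sum there. After 1 h of red light, EXPA1 and EXPA10 were called higher than in D and none lower. In continuous white light, EXPA1 and EXPA6 were called higher than in D, and EXPA2, EXPA3, EXPA4 and EXPA11 lower. EXPA1 was the gene called in both comparisons, and EXPA5, EXPA7 and EXPA8 were called in neither. Over the 17299 genes that reached 10 pseudo-counts in some group, 3.89% were called higher and 2.46% lower in R1h, and 13.9% were called higher and 10.7% lower in WLc. The median log2 fold change of the 10 genes was 0.12 in R1h and -0.43 in WLc, where the medians over all genes tested were 0.003 and 0.02. Between the light groups, WLc against R1h, none of the 10 genes was called higher and EXPA3, EXPA4, EXPA10 and EXPA11 were called lower, against 12.0% higher and 10.0% lower over all genes. The comparisons share columns, so their values are given side by side and not as separate evidence.

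**Figure D1:**
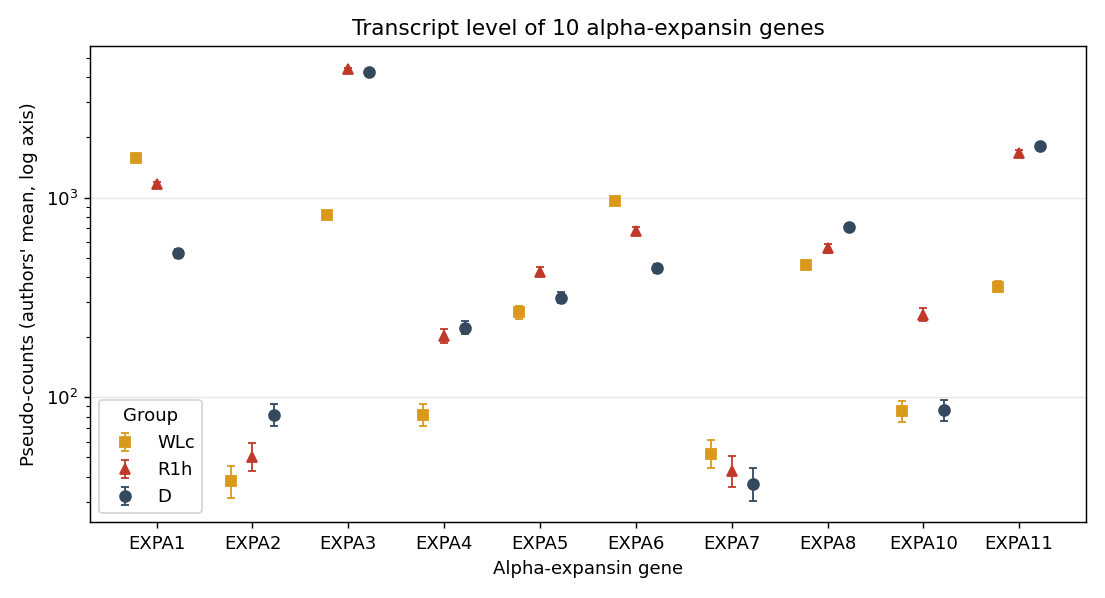
Transcript level of each alpha-expansin gene in pseudo-counts on a log axis, with WLc as squares, R1h as triangles and D as circles, each the authors' mean of 3 libraries with a 95% counting interval as the error bar. Within the gene, the WLc level is the lowest of the 3 for EXPA3 and EXPA11, at 816 and 358. It is the highest of the 3 for EXPA1 and EXPA6, at 1585 and 962, while for EXPA10 the R1h level is, at 260.

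EXPA1 (AT1G69530), known from guard cells and growing leaves, had 1585 pseudo-counts in WLc, 1163 in R1h and 526 in D. It thus stood higher in both light groups than in darkness. The log2 fold change was 1.14 in R1h against D, with a counting interval from 1.06 to 1.23, and 1.59 in WLc against D, from 1.51 to 1.67. Between the light groups themselves, WLc against R1h, it was 0.45.

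EXPA10 (AT1G26770), whose product is known to promote leaf growth, had 85.3 pseudo-counts in WLc, 260 in R1h and 86.2 in D. The R1h level was therefore apart from both others, which lay within counting error of each other. R1h exceeded D by a log2 fold change of 1.58 (1.39 to 1.80), the largest of the 10 genes, at place 304 from the top of the 17299 genes tested. EXPA1 took place 542. In WLc against D the value was -0.01 (-0.27 to 0.24), and in WLc against R1h it was -1.59 (-1.82 to -1.40).

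EXPA1 and EXPA10 are also close in sequence. The 10 genes lie on chromosomes 1, 2, 3 and 5 and have coding sequences of 750 to 789 bases. The longest annotated transcripts of EXPA1 and EXPA10 have 4 exons, and those of the other 8 genes have 3. Their coding sequences were identical at 78.9% of 750 aligned bases, the highest value among the 45 pairs of these genes, which ranged from 60.9% with a median of 67.4%. The 250 bases before the annotated gene start were searched on both strands for the G-box (CACGTG) and for the PIF-binding E-box or PBE-box (CACATG, read as CATGTG on the other strand). Both motifs are bound by Phytochrome Interacting Factors (PIFs), the transcription factors that light removes. The windows of the 2 genes called higher in R1h are shown because each held the PBE-box in both orientations, overlapping in the 8 bases CACATGTG that are printed in capitals. The sequences are from the RefSeq genome TAIR10.1, both on the plus strand, chr1:26141476-26141725 for EXPA1 and chr1:9259182-9259431 for EXPA10.
EXPA1: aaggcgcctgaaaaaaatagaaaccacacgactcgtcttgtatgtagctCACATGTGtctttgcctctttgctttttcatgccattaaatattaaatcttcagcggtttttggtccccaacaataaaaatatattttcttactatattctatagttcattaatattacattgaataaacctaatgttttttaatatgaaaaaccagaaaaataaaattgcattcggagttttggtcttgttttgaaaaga
EXPA10: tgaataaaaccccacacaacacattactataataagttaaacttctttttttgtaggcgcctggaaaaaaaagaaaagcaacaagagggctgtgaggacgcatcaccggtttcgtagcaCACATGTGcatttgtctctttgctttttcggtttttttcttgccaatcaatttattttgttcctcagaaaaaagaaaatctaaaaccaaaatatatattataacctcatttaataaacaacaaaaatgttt

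The capitals lie in a stretch that the 2 promoters share. In a local alignment of the 250-base windows of all 45 pairs, EXPA1 and EXPA10 had the highest score, 50 against 29 for the next pair. The aligned stretch was 35 bases long, of which 31 were identical, at 207 to 173 bases before the start of EXPA1 (chr1:26141519-26141553) and at 137 to 103 bases before that of EXPA10 (chr1:9259295-9259329).
EXPA1 stretch: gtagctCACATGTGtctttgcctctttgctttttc
EXPA10 stretch: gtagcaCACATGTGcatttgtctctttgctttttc

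The 8 bases CACATGTG were looked at after the sequences had been read. They were found in the 250-base windows of 2 of the 10 genes, and in 0.375% of the 27443 protein-coding gene promoters of this length. A PBE-box of any kind was in 4 of the 10 windows, those of EXPA1, EXPA2, EXPA10 and EXPA11, against 11.1% of all promoters. No window of the 10 held a G-box, against 6.49% of all promoters. With 1000 bases the PBE-box was in 6 of 10, against 37.7% of all, and the G-box in 1 of 10, that of EXPA2 at 255 bases before the start, against 14.8% of all. A PBE-box within 250 bases was thus present in EXPA1, called higher in R1h and WLc, and in EXPA10, called higher in R1h. It was also present in EXPA2 and EXPA11, called lower in WLc. EXPA3 and EXPA4, also called lower in WLc, and EXPA6, called higher there, held none in that window. A match is a string of letters and was not tested as a binding site.

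**Figure D2:**
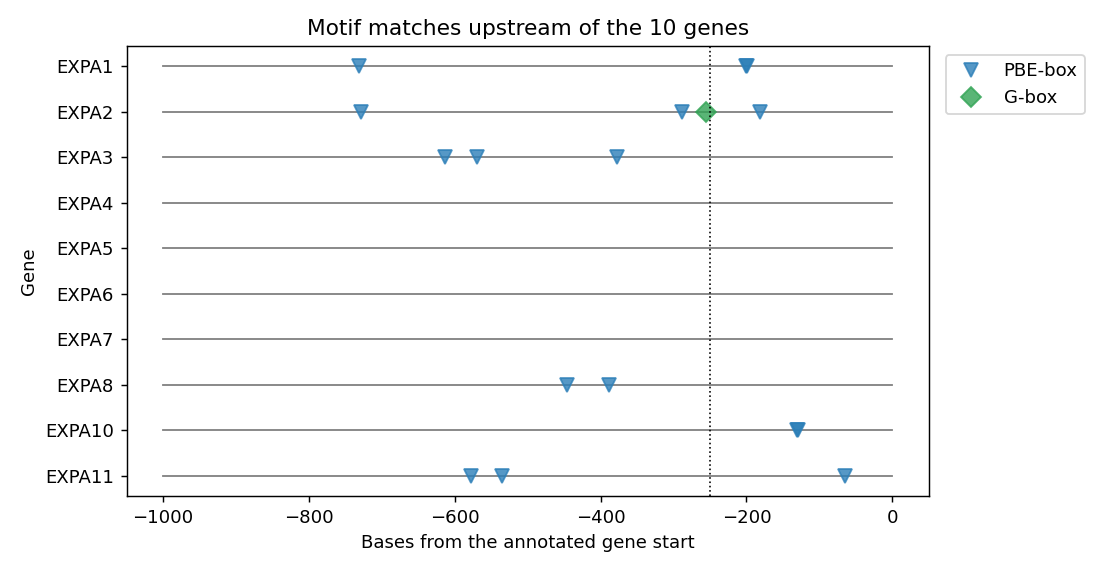
Matches to the PBE-box (triangles) and the G-box (diamond) in the 1000 bases before the annotated start of each gene, in bases from the start, with the dotted line at 250 bases. The overlapping pair of matches in EXPA1 lies at 199 and 201 bases and that in EXPA10 at 129 and 131 bases, while EXPA4, EXPA5, EXPA6 and EXPA7 hold no match.

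EXPA6 (AT2G28950) ran in the same order as EXPA1, with 962 pseudo-counts in WLc, 683 in R1h and 442 in D. WLc against D gave a log2 fold change of 1.12 (1.03 to 1.21). This call is close to the threshold, since it became 0.99 when the columns were scaled to their totals, a setting that shifted the median of all genes by -0.13 in WLc. R1h against D gave 0.62 (0.53 to 0.73), short of 2-fold.

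EXPA3 (AT2G37640) was the most abundant of the 10 genes in darkness, and its level stood apart in WLc. It had 816 pseudo-counts in WLc, 4399 in R1h and 4269 in D. WLc against D gave a log2 fold change of -2.39 (-2.45 to -2.33), at place 408 from the bottom of the genes tested. R1h against D gave 0.04 (0.01 to 0.08), a sign that turned negative with scaling to the column total (-0.02) or quantile normalization (-0.06). By level, EXPA3 took place 2074 among all genes tested in WLc, 446 in R1h and 422 in D.

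EXPA11 (AT1G20190) followed EXPA3 closely, with 358 pseudo-counts in WLc, 1679 in R1h and 1809 in D. Its log2 fold change was -2.33 (-2.43 to -2.24) in WLc against D and -0.11 (-0.16 to -0.05) in R1h against D. The ratio of WLc to D was 0.191 in EXPA3 and 0.198 in EXPA11. After the first hour of red light both stood near their dark level, with R1h to D ratios of 1.03 in EXPA3 and 0.928 in EXPA11.

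EXPA4 (AT2G39700) had the same order at a lower level, with 81.4 pseudo-counts in WLc, 202 in R1h and 223 in D. WLc against D gave -1.44 (-1.67 to -1.24), while the interval of R1h against D spanned 0 (-0.14, from -0.30 to 0.02). Among the 45 pairs of these 10 genes, EXPA4 and EXPA6 were next closest in coding sequence, with 78.2% identity, and EXPA4 was called lower in WLc and EXPA6 higher.

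EXPA2 (AT5G05290), known from germinating seeds, where it responds to gibberellin, had 38.0 pseudo-counts in WLc, 50.4 in R1h and 82.0 in D. It was the one gene that stood lower in R1h by more than 1.5-fold, with a log2 fold change of -0.69 (-0.997 to -0.40). In WLc against D it was -1.09, called lower, but the counting interval from -1.44 to -0.79 reached inside 2-fold. EXPA8 (AT2G40610) had the same order with smaller differences, 462 in WLc, 557 in R1h and 709 in D. Its log2 fold changes were -0.62 (-0.72 to -0.52) in WLc and -0.35 (-0.44 to -0.26) in R1h.

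EXPA5 (AT3G29030), known to promote growth downstream of brassinosteroids, had 266 pseudo-counts in WLc, 426 in R1h and 315 in D. Its highest level was thus in R1h, as for EXPA10 but by less. R1h against D gave 0.43 (0.31 to 0.56), WLc against D gave -0.24 (-0.38 to -0.11), and WLc against R1h gave -0.68.

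EXPA7 (AT1G12560), a gene of root hairs, was the lowest of the 10 in D and R1h. It had 52.2 pseudo-counts in WLc, 42.7 in R1h and 36.9 in D. The interval of R1h against D spanned 0 (0.20, from -0.17 to 0.59), and WLc against D gave 0.49 (0.15 to 0.87). Of 10 other root hair markers, 8 were in the table, none of them at 0, with 874 pseudo-counts in all in WLc, 973 in R1h and 1020 in D. RHD4 and RHD2 had the highest levels of the 8 in D and weighed most on that sum. In WLc against D their log2 fold changes were -0.41 (RHD4) and -0.78 (RHD2). Over the 8 markers these values ran from -0.78 to 1.17 with a median of -0.02, so the lower sum was not a fall common to the markers. Of those 8, PRP1 was called higher in WLc, with an interval from 0.79 to 1.64, and none was called in R1h. Over all genes tested, 13.9% were called higher and 10.7% lower in WLc, and 3.89% higher and 2.46% lower in R1h. The part of root hair number in the EXPA7 level was not tested.

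**Figure D3:**
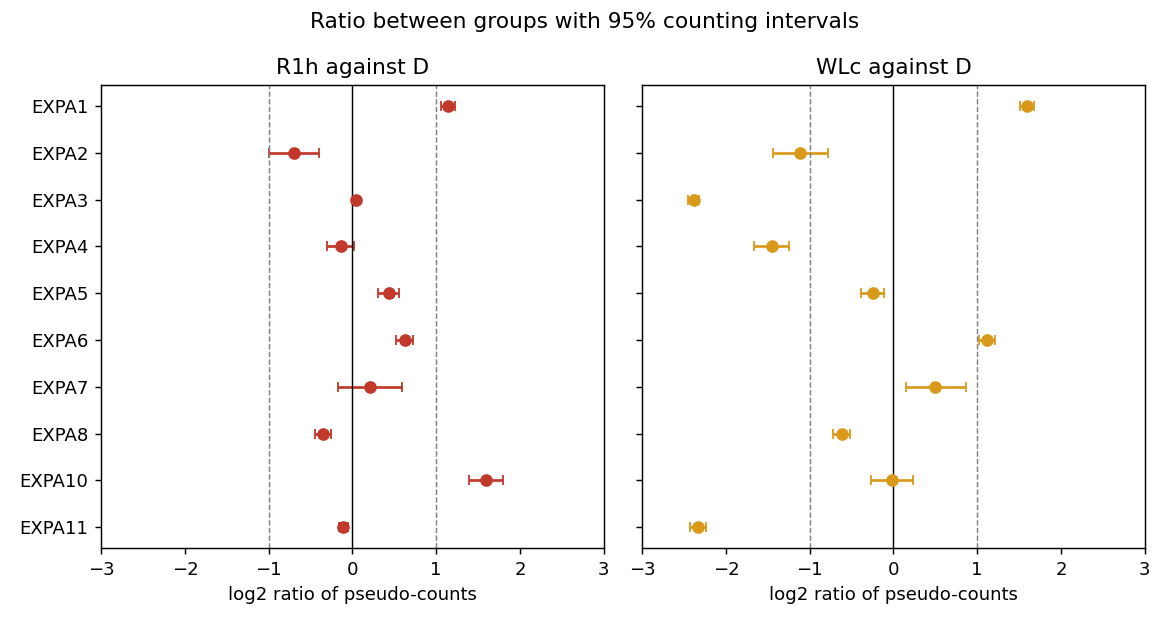
Log2 ratio of pseudo-counts for each gene in R1h against D (left) and WLc against D (right), with 95% counting intervals as bars and dashed lines at 2-fold. On the left EXPA1 and EXPA10 lie beyond 2-fold. On the right EXPA3 and EXPA11 lie lowest, at ratios of 0.191 and 0.198, and EXPA1 highest, at a ratio of 3.01.

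The order of the genes by level changed with continuous light. Reads were counted over the last 500 bases of each transcript, an equal length for each gene. For each of the 10, no 50-base window of that stretch recurred in the longest RefSeq transcript of another nuclear protein-coding gene. Levels are set beside each other on that basis, though other transcripts and non-coding genes were not searched. The transcript ends in the gene models used for counting can differ from RefSeq, and their effect on the order of genes was not tested. The order in WLc was EXPA1, EXPA6, EXPA3, EXPA8, EXPA11, EXPA5, EXPA10, EXPA4, EXPA7 and EXPA2. In R1h it was EXPA3, EXPA11, EXPA1, EXPA6, EXPA8, EXPA5, EXPA10, EXPA4, EXPA2 and EXPA7, and in D it was EXPA3, EXPA11, EXPA8, EXPA1, EXPA6, EXPA5, EXPA4, EXPA10, EXPA2 and EXPA7. Neighbours whose counting intervals overlapped were EXPA10 and EXPA4 and also EXPA7 and EXPA2 in WLc, EXPA2 and EXPA7 in R1h, and EXPA10 and EXPA2 in D.

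The summed level of the 10 genes was 4705 pseudo-counts in WLc, 9461 in R1h and 8499 in D. The ratio was 0.554 in WLc against D and 1.11 in R1h against D. EXPA3 and EXPA11 together made up 1174 pseudo-counts in WLc, 6078 in R1h and 6077 in D, which was 24.9%, 64.2% and 71.5% of the sum. The other 8 genes summed to 3531 in WLc, 3383 in R1h and 2422 in D. Of these, EXPA1 and EXPA6 together had 2547 in WLc, 1846 in R1h and 969 in D, while the remaining 6 genes had 984 in WLc, 1537 in R1h and 1453 in D. The sum without EXPA3 and EXPA11 was thus higher in WLc than in D through EXPA1 and EXPA6, and the remaining 6 genes summed to less. EXPA1 alone held 33.7% of the sum in WLc, 12.3% in R1h and 6.19% in D.

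**Figure D4:**
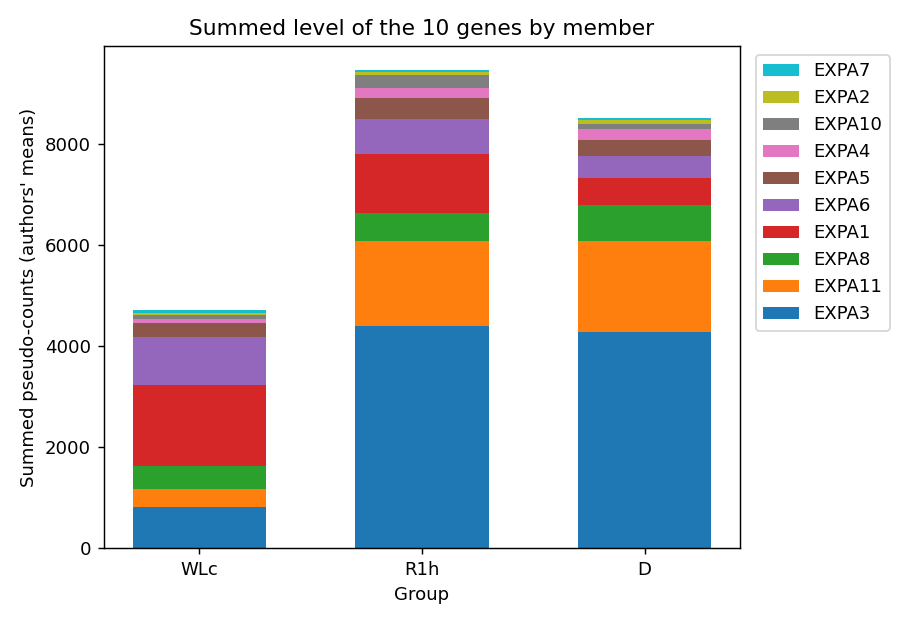
Summed pseudo-counts of the 10 genes in WLc, R1h and D, with each gene as a part of the bar. The 2 lowest parts, EXPA3 and EXPA11, hold 1174 of 4705 pseudo-counts in WLc, 6078 of 9461 in R1h and 6077 of 8499 in D.

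Of the 16 other Arabidopsis alpha-expansin genes, 8 were in the table, and the levels of the rest were not analysed here. Of those 8, 7 passed the low-value filter, 1 was called higher and 1 lower in R1h, and 1 was called higher and 2 lower in WLc. Over all genes tested, 3.89% were called higher and 2.46% lower in R1h, and 13.9% higher and 10.7% lower in WLc. EXPA15 (AT2G03090), close to EXPA10 with 76.2% coding identity and to EXPA1 with 75.2%, had 137 pseudo-counts in WLc, 143 in R1h and 59.4 in D. Its log2 fold changes were 1.20 in WLc (0.96 to 1.47) and 1.26 in R1h (1.02 to 1.53). These 3 genes, EXPA1, EXPA10 and EXPA15, were those called higher in R1h among the 18 alpha-expansins in the table.

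EXPA9 (AT5G02260), with 76.0% coding identity to EXPA3, had 266 pseudo-counts in WLc, 850 in R1h and 2105 in D. It was lower in both comparisons, at -2.98 in WLc and -1.31 in R1h, where EXPA3 stood at its dark level. With EXPA9 and the other 7 genes added, the alpha-expansin sum was 5301 in WLc, 10750 in R1h and 10943 in D. EXPA20 (AT4G38210) was called lower in WLc at -1.22 (-1.60 to -0.90), an interval that reached inside 2-fold. EXPA18 (AT1G62980), a root hair gene with 75.0% coding identity to EXPA7, had levels near those of EXPA7, 53.5 in WLc, 41.3 in R1h and 36.4 in D.

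**Figure D5:**
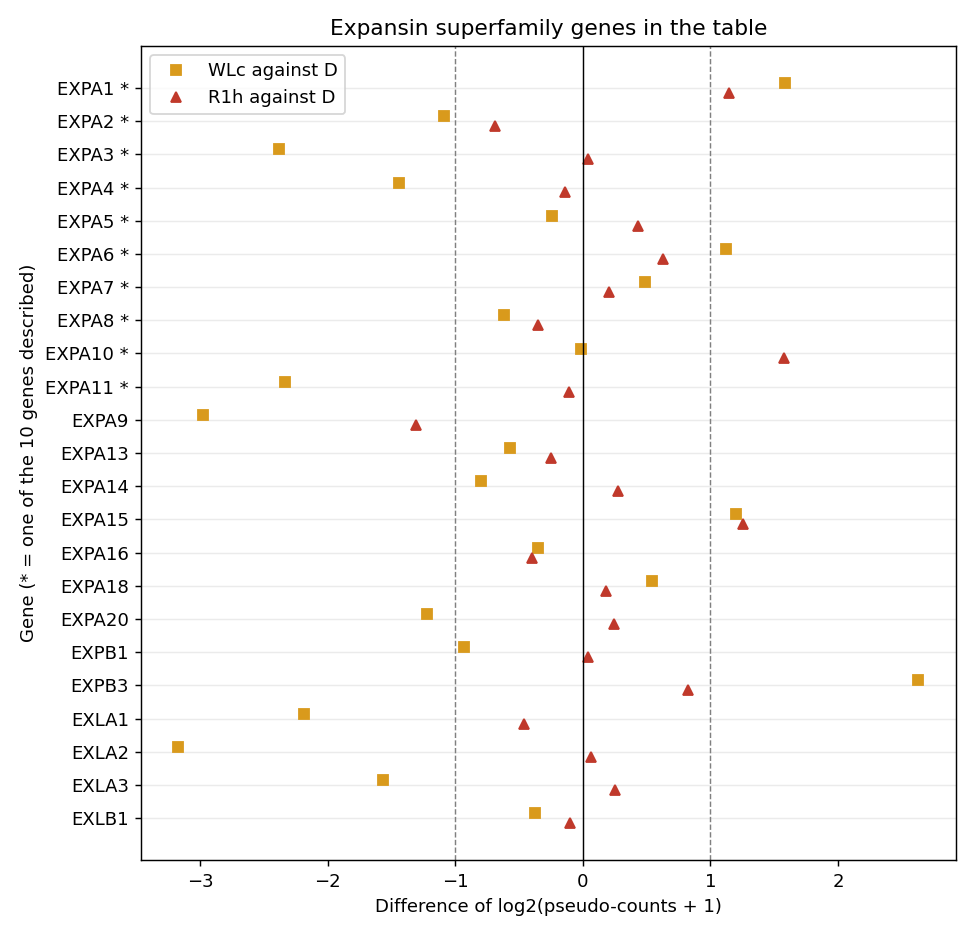
Difference of log2(pseudo-counts + 1) for WLc against D (squares) and R1h against D (triangles) in all expansin superfamily genes that passed the low-value filter, with the 10 genes described marked by an asterisk and dashed lines at 2-fold. The triangles of EXPA1, EXPA10 and EXPA15 lie beyond 2-fold on the right and that of EXPA9 beyond 2-fold on the left.

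Among 6 beta-expansin and expansin-like genes in the table, none was called in R1h, while 1 was called higher and 3 lower in WLc. The shares over all genes were 3.89% higher and 2.46% lower in R1h, and 13.9% higher and 10.7% lower in WLc. EXLA2 (AT4G38400) had 73.0 pseudo-counts in WLc and 666 in D, a log2 fold change of -3.17, and EXLA1 (AT3G45970) stood at -2.18 and EXLA3 (AT3G45960) at -1.57 (-2.72 to -0.85). The higher one was EXPB3 (AT4G28250), with 189 in WLc and 29.6 in D (2.63). Of 8 plasma membrane proton pump genes, none was called in R1h, and 2 were called higher and 1 lower in WLc, beside the same shares over all genes. AHA2 (AT4G30190), a major pump of seedlings, had 1435 pseudo-counts in WLc and 3822 in D (-1.41), whereas AHA1 (AT2G18960) had 2011 in WLc and 2387 in D (-0.25). AHA3 (AT5G57350) stood at 1.49 and AHA5 (AT2G24520) at 1.28 (0.62 to 2.25), a call that a pseudocount of 5 brought to 0.94.

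Xyloglucan endotransglucosylase genes (XTH), the other large family of wall-modifying proteins, also held members on either side. Of 27 in the table, 1 was called higher and 2 lower in R1h, and 5 were called higher and 12 lower in WLc. Over all genes the shares were 3.89% higher and 2.46% lower in R1h, and 13.9% and 10.7% in WLc. Their WLc values ranged from -6.16 (XTH15) to 7.85 (XTH6), while those of the 10 alpha-expansins ranged from -2.39 to 1.59. In R1h the ranges were -2.50 to 2.37 for the 27 XTH genes and -0.69 to 1.58 for the same 10 alpha-expansins. EXPA9, an alpha-expansin outside the 10, stood at -2.98 in WLc and -1.31 in R1h. These values lay below the ranges of the 10 alpha-expansins and inside those of the XTH genes. The ranges cover unlike numbers of genes, and with 1 mean per group the difference between the families was not tested.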

How the data were processed

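The counts behind the table come from exact, unique Bowtie hits of 50-base reads to TAIR9 gene models. Only sense hits in the 3′ terminal 500 bases entered the count. The deposited values are a signal made by the authors with edgeR, pseudo-counts at a common library size, as 1 mean column per group. Software versions of the authors were not given in the sources used here, and their edgeR test on library counts could not be repeated on means, so differences of log2(value + 1) were computed, which understates changes of low genes. Values below 1e-06 were read as 0. The value of 1 read per column, the mean of the 3 lowest levels above 0, gave approximate reads, about 111 to 13325 per gene and group here, and Clopper-Pearson intervals. Their computation was checked on simulated counts with counting error only. That check cannot show how they hold with spread between libraries. Genes that reached 10 in some group were tested for size.

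The genes, lists and thresholds were chosen with earlier results of these data known. All 10 genes are named. From other lists up to 4 genes past 2-fold in either comparison are named, the largest first, if they reached a level of 10. EXPA18, AHA1, RHD2 and RHD4, which were short of 2-fold, are named for comparison. RHD2, RHD4, CASP1 and WER were not taken through the alternative settings. For EXPA10 (largest difference of the 10 in R1h against D) and EXPA3 (largest in WLc against D), the 3 genes nearest in pattern are named. For the XTH list the extremes are named. Markers of root cells other than root hairs (6 genes) summed to 1467 pseudo-counts in WLc, 3437 in R1h and 4300 in D, of which CASP1 held 952, 2852 and 3699. CASP1 was called lower in WLc against D, at -1.96, and weighed most on the lower sum. Of the 5 markers that reached a level of 10, 4 were within 2-fold in WLc and 4 in R1h. The median of the 5 in WLc was -0.38. Over all genes tested, 10.7% were called lower and 13.9% higher in WLc, and 2.46% lower and 3.89% higher in R1h. WER, with 29.0 in WLc, 70.7 in R1h and 34.7 in D, was called higher in R1h against D. Its log2 fold change there was 1.01 (0.68 to 1.37), an interval that reached inside 2-fold.

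Symbols, promoters, coding sequences and transcript ends came from RefSeq TAIR10.1, where 17628 of 17680 loci were found. TAIR10.1 keeps the nuclear assembly of TAIR9, but gene models and starts can differ. Promoter windows precede the annotated gene start, the most upstream one. Identity is over aligned bases of global alignments (Biopython 1.88). Python 3.11.15, numpy 2.4.6, pandas 2.3.3, scipy 1.17.1 and matplotlib 3.10.9 were used. Alternatives were pseudocounts of 0.5 and 5, scaling to the column total, quantile normalization, no low-value filter, a 1.5-fold threshold and calls by counting interval.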

Additional observations from a re-analysis of the deposited data

How the results depend on the processing

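No paired analysis was possible because the table holds 1 mean per group, and for the same reason no library could be left out. Scaling to the column total gave 1 gene called higher in WLc against D in place of 2, since EXPA6 came to 0.99, and moved the ratio of the summed level to 0.506 in WLc and 1.06 in R1h, where quantile normalization gave 0.592 and 1.05. Calling at 1.5-fold gave 1 gene lower in R1h against D in place of 0, EXPA2. It added EXPA6 as higher in R1h and EXPA8 as lower in WLc. Among the other genes taken through these settings, it added EXPB3 and XTH6 as higher in R1h. Requiring the counting interval to clear 2-fold entirely, EXPA2, EXPA20 and EXLA3 were no longer called lower in WLc, nor EXPA15, AHA5 and PRP1 higher. AHA5 also fell short of 2-fold in WLc with a pseudocount of 5 (0.94) and with quantile normalization (0.95). Among the 10 genes no call changed with a pseudocount of 0.5 or 5 or without the low-value filter. No called value of the genes taken through the settings changed sign. What limits every statement is that counting error is known and the spread between libraries is not.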

Other observations

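The genes whose levels ran most like those of EXPA10 over the 3 group means were AT1G32690, at a distance of 0.012, AT4G12000, at 0.057, and AT3G57062, at 0.110, among 13330 genes with a level of at least 50 in a group. The distance is Euclidean, over log2(value + 1) less its mean. AT1G32690 had 28.3 pseudo-counts in WLc, 88.5 in R1h and 28.8 in D, and AT4G12000 had 179, 531 and 171 in WLc, R1h and D. For EXPA3 they were AT3G11580 (0.019), AT4G29020 (0.038) and ADC2 (AT4G34710, 0.050), an arginine decarboxylase gene of polyamine synthesis. ADC2 had 485 pseudo-counts in WLc, 2493 in R1h and 2465 in D. With 3 points a gene, such likeness is a description of these columns.

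EXPA15, the third alpha-expansin called higher in R1h, held no G-box and no PBE-box in its 250-base window. In local alignment that window scored 23 with the window of EXPA1 and 26 with that of EXPA10. Of the alpha-expansin windows searched, which did not include that of EXPA19, those of EXPA1 and EXPA10 held CACATGTG.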
